A study of Mus musculus with 2 samples.

Results

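The regional identity transcription factors considered here are 9 genes that pattern the gut from stomach to colon, taken from the count table by gene symbol. They were the CDX genes Cdx1 and Cdx2, the zinc finger genes Gata4, Gata5 and Gata6, the homeobox genes Pdx1 and Onecut2, the SOX gene Sox21 and the odd-skipped gene Osr2. All 9 were among the 19294 genes of the count table. Expression was measured by stranded poly(A) RNA-seq in 2 libraries of mouse intestinal organoids, cultures grown from crypts that form a budding epithelium around a lumen. Both cultures carried the genotype Lgr5-EGFP-IRES-creERT2, a reporter in which the Lgr5 locus drives EGFP and an inducible Cre, and both were grown with EGF, Noggin and R-spondin in Matrigel. Per the methods of the study, the crypts came from the jejunum. One culture was the control and the other received dextran sulfate sodium (DSS), a sulfated sugar polymer toxic to gut epithelium, for 4 days. The age and number of the mice and the DSS concentration of this culture were not given in the sources used here. There was 1 library per condition, so no difference below has a replicate check and no test between conditions was made.

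The position of an intestinal cell along the gut is held by a small set of transcription factors. CDX2 is the master regulator of intestinal against gastric identity, and CDX1, its relative, is a WNT target of the crypt. GATA4 marks the proximal part of the small intestine and is low in the ileum, where bile acid uptake genes take over, whereas GATA6 spans the length of the intestine and shares functions with GATA4. GATA5 is the third endodermal member of the family. PDX1 belongs to the duodenum, the antrum of the stomach and the pancreas, and ONECUT2 to the proximal small intestine. SOX21 is a repressor of the SOXB group, and OSR2 is a zinc finger factor best known from palate and joint development.

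Sequencing depth was 65493032 counts for the control and 59746968 counts for DSS. Counts were scaled with TMM factors, which correct for a few abundant genes taking a larger part of one library, and are given as CPM, the count scaled to a common library size. The epithelial genes Epcam, Cdh1, Krt8, Krt18 and Krt19 were all present, and their summed level was 5262 CPM in the control and 7950 CPM with DSS. The defining mesenchymal genes Col3a1, Dcn and Lum and the leukocyte genes Ptprc and Cd3e were not in the table, whose lowest count was 1. No listed gene had a count of 0 in either library, so a gene without counts in 1 library would be missing even if the other library held many, and absence from the table does not show that a gene was not expressed. Of the cell types within the epithelium, all 5 stem cell markers had a lower level in the DSS library, and their sum was 832 CPM in the control and 130 CPM with DSS. The 5 enterocyte markers summed to 2307 CPM and 15181 CPM, the 5 goblet cell markers to 703 CPM and 11136 CPM, and the 5 enteroendocrine markers to 765 CPM and 3827 CPM. By RT-PCR, the study reported lower Lgr5 and Lyz with DSS but similar levels of Vil1, Muc2 and Chga. Here Lgr5 and Lyz1 were lower too, but Vil1 was at 509 CPM in the control and 1214 CPM with DSS. Muc2 was at 25.8 CPM and 812 CPM and Chga at 71.8 CPM and 436 CPM. The RT-PCR values are relative, and the primer list of the study holds Gapdh beside the marker genes. The log2 ratio of scaled counts here, DSS over control, was 0.97 for Gapdh and 1.25 for Vil1. It was 4.98 for Muc2 and 2.60 for Chga. The 2 measurements are thus scaled differently, and Vil1 lay little above Gapdh, while Muc2 and Chga lay further above it. Paneth cell markers summed to 812 CPM and 297 CPM and tuft cell markers to 9.04 CPM and 4.46 CPM. Of cells outside the epithelium, 4 of 10 mesenchymal, 3 of 5 endothelial and 4 of 6 immune markers were in the table, with sums of 1.44 CPM and 2.10 CPM, 0.405 CPM and 3.31 CPM, and 14.1 CPM and 24.3 CPM in the same order. The labels call the cells intestinal stem cells, while the stem cell marker Olfm4 had 13109 counts in the control and only 13 counts with DSS. In such bulk libraries, fewer cells of a type and less RNA per cell cannot be told apart, and the part of these shifts in the values of the regional factors was not tested.

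Promoter sequence is shown for the 3 members whose scaled counts differed by at least 2-fold between the libraries. They were taken from RefSeq (GRCm38.p6), 5′ to 3′ on the strand of the gene, and stop before the first annotated exon base. The Cdx2 sequence lies at chr5:147307271-147307499 on the minus strand, that of Sox21 at chr14:118237031-118237280 on the minus strand and that of Gata5 at chr2:180334700-180334929 on the minus strand. Capitals mark CCAAT boxes (CCAAT on either strand) and GC boxes (GGGCGG on either strand).
Cdx2: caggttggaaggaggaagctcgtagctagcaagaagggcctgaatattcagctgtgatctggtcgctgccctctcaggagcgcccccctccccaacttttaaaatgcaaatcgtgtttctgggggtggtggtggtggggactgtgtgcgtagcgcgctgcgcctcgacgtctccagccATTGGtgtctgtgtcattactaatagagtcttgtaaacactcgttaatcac
Sox21: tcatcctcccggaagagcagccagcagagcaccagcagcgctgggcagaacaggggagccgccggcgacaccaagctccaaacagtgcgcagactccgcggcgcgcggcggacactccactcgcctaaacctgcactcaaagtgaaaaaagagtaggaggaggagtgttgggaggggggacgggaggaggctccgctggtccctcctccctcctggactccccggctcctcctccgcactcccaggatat
Gata5: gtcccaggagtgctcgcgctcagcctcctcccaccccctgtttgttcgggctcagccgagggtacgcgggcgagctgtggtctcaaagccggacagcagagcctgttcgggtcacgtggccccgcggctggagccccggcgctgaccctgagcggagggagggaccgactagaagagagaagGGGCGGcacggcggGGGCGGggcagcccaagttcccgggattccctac
The Gata5 sequence had the highest content of G and C, at 70.4% with 21 CG dinucleotides in 230 bases, and held 2 GC boxes. Sox21 was at 65.2% with 17 CG dinucleotides in 250 bases and held no match. Cdx2 was at 53.7% with 11 CG dinucleotides in 229 bases and held 1 CCAAT box. Of the 13002 genes of the count table with a RefSeq promoter, 40% held a CCAAT box and 57.6% a GC box in the 250 bases before the start, against 37.5% and 35.4% of all 27025 genes with such a promoter. A GATA site (AGATAA), a CDX site (TTTATNG), a TCF/LEF site (CTTTGAT) and a TATA box (TATAAA) on either strand were present in 11.4%, 11.3%, 3.72% and 14.3% of the 27025 genes, in 8.08%, 8.38%, 3% and 9.28% of the 13002 genes, and in none of the 3 sequences. The core promoter elements were chosen after the sequences were seen. Promoters of the other members are not shown.

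Cdx2 was the member with the largest difference. It had 12798 counts in the control and 3840 counts with DSS, which is 179 CPM and 70.2 CPM. The log2 ratio of scaled counts, DSS over control, was -1.35 (95% counting interval -1.40 to -1.30), so the level was 2.55-fold lower in the DSS library. Of the 17235 genes with at least 10 counts in a library, 14% had a lower log2 ratio than Cdx2. Intervals here and below are exact (Clopper-Pearson for ratios and shares, Poisson for levels) except for changes in a ratio of 2 genes, which use the log odds ratio, and cover counting error only, since reads were not counted as molecules and the spread between cultures is unknown.

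Cdx1 had a smaller difference in the same direction. Its counts were 6249 in the control and 3120 with DSS, at 87.3 CPM and 57.1 CPM, for a log2 ratio of -0.61 (interval -0.68 to -0.55). Together the CDX genes had 19047 counts in the control and 6960 counts with DSS, a log2 ratio of -1.06. Within the CDX counts, the share of Cdx1 was 32.8% in the control (interval 32.1% to 33.5%) and 44.8% in the DSS library (interval 43.7% to 46.0%). The ratio of Cdx2 to Cdx1 counts was 2.05 in the control and 1.23 with DSS. Its log2 change of -0.73 (interval -0.82 to -0.65) does not depend on how the libraries were scaled.

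Pdx1 is the neighbour of Cdx2 on chromosome 5, where the 2 genes are 24.96 kb apart in GENCODE vM21 (GRCm38) as members of the ParaHox cluster. It had 1570 counts in the control and 762 counts with DSS, at 21.9 CPM and 13.9 CPM. The log2 ratio was -0.65 (interval -0.78 to -0.53). Pdx1 was thus lower in the DSS library, but by less than Cdx2, and the ratio of Pdx1 to Cdx2 counts was 0.123 in the control and 0.198 with DSS. Gsx1, the other ParaHox gene of this cluster, and Cdx4, the X-linked CDX gene, were not in the table. Of 8 genes of the pancreas, where PDX1 is also active, the insulin genes Ins1 and Ins2, the acinar genes Prss2, Cpa1 and Amy2a1 and the progenitor factor Ptf1a were not in the table. Cela1 had a log2 ratio of 0.10, and Nkx6-1 had only 10 counts in the control and 6 with DSS.

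**Figure D1:**
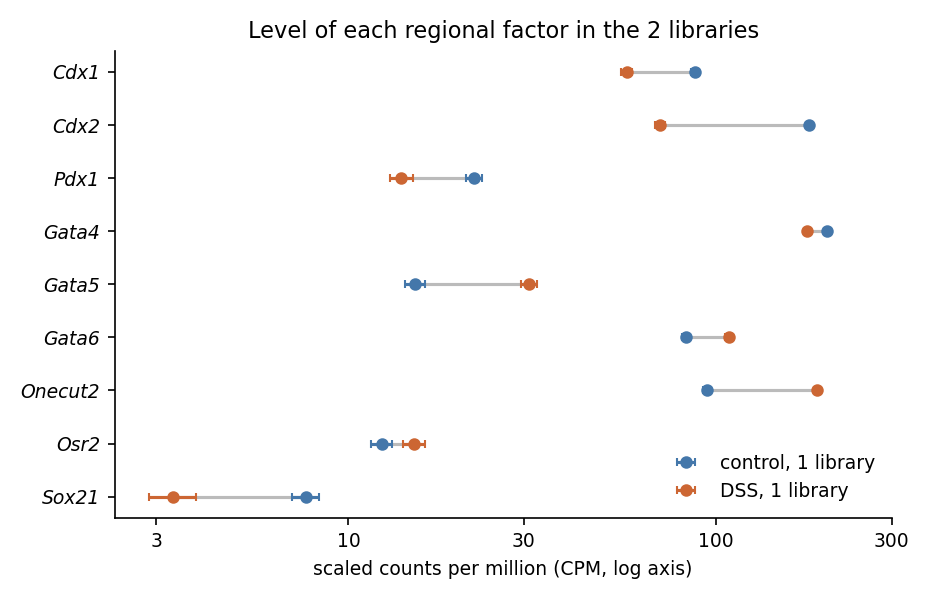
Scaled CPM of the 9 regional factors on a log axis, 1 row per gene, in the control (blue) and DSS (orange) library, with 95% Poisson intervals as bars. Cdx2 lies at 179 CPM in the control and 70.2 CPM with DSS, while Onecut2 lies at 94.5 CPM and 188 CPM.

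The 3 GATA genes lay on both sides of 0. Gata4 was the member with the most counts in the control library, 14308 against 9647 in the DSS library, at 200 CPM and 176 CPM. Its log2 ratio of -0.18 (interval -0.22 to -0.14) lay near the median of all genes, which was -0.06. Gata6 had 5916 counts in the control and 5935 counts with DSS, at 82.7 CPM and 109 CPM, for a log2 ratio of 0.39 (interval 0.34 to 0.45).

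Gata5 was the least abundant of the GATA genes and the one with the largest difference. It had 1086 counts in the control and 1693 counts with DSS, at 15.2 CPM and 31.0 CPM. The log2 ratio was 1.03 (interval 0.92 to 1.14), a level 2.04-fold higher in the DSS library, and 81.3% of all genes tested had a lower ratio. The antisense gene Gata5os had 7 counts in the control and 20 counts with DSS. Whether the counting used the strand was not given in the sources used here, so reads of Gata5 and Gata5os may not be separated, although Gata5os counts were few beside those of Gata5.

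The summed GATA counts were 21310 in the control and 17275 with DSS, a log2 ratio of 0.09 (interval 0.06 to 0.11) with TMM factors and -0.17 with total counts, so the direction of the sum depends on the scaling. The shares within the sum do not depend on it. Gata4 took 67.1% of the GATA counts in the control and 55.8% with DSS, Gata6 took 27.8% and 34.4%, and Gata5 took 5.10% and 9.80%. The counting intervals in the control and DSS libraries were 66.5% to 67.8% and 55.1% to 56.6% for Gata4. They were 27.2% to 28.4% and 33.6% to 35.1% for Gata6, and 4.8% to 5.4% and 9.4% to 10.3% for Gata5. These intervals cover counting error only, and the 3 shares are parts of 1 sum, so they are not independent. The ratio of Gata4 to Gata6 counts was 2.42 in the control and 1.63 with DSS, a log2 change of -0.57 (interval -0.64 to -0.51). Gata1, Gata2 and Gata3, the blood cell members of the family, and the cofactor Zfpm2 were not in the table. Zfpm1, which encodes the GATA cofactor FOG1, had 5768 counts in the control and 3385 counts with DSS, a log2 ratio of -0.38 (interval -0.44 to -0.32).

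**Figure D2:**
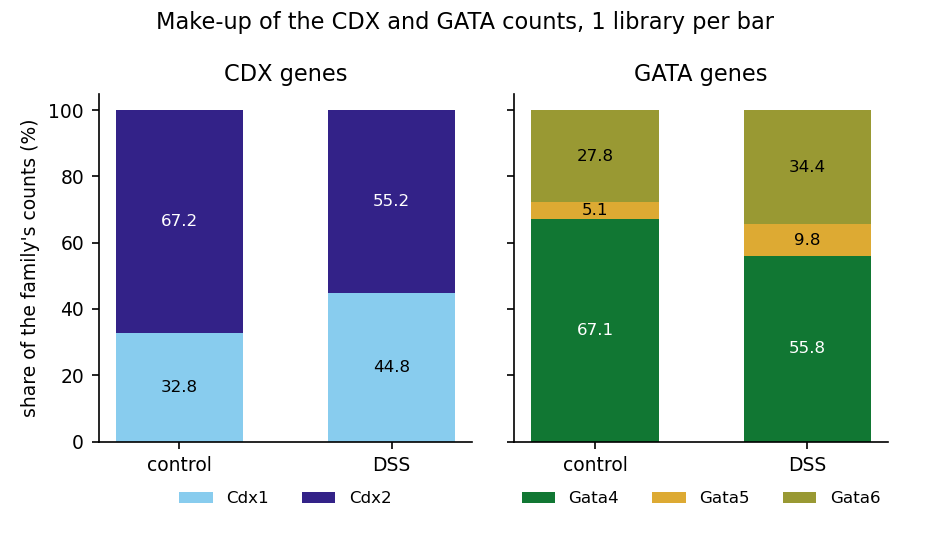
Share of the counts of the CDX genes (left) and the GATA genes (right) taken by each member, in percent, with 1 library per bar. Cdx1 takes 32.8% of the CDX counts in the control and 44.8% with DSS, and Gata4 takes 67.1% and 55.8% of the GATA counts.

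Among the other proximal factors, Onecut2 had 6762 counts in the control and 10259 counts with DSS, at 94.5 CPM and 188 CPM. The log2 ratio was 0.99 (interval 0.95 to 1.03), so that Onecut2 lay just short of a 2-fold difference and Gata5 just past it, with both intervals reaching across the line. Its relative Onecut3 was rare, with 38 counts in the control and 150 counts with DSS, and had a log2 ratio of 2.37 (interval 1.85 to 2.92). Onecut1 was not in the table. Onecut2 therefore held 99.4% of the ONECUT counts in the control and 98.6% with DSS.

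Osr2 and Sox21 were the members with the fewest counts in the control and lay on opposite sides of 0. Osr2 had 881 counts in the control and 826 counts with DSS, at 12.3 CPM and 15.1 CPM, with a log2 ratio of 0.30 (interval 0.16 to 0.43). Sox21 had 549 counts in the control and 182 counts with DSS, at 7.67 CPM and 3.33 CPM. Its log2 ratio was -1.20 (interval -1.45 to -0.96), a level 2.3-fold lower in the DSS library. The interval reached past the 2-fold line at -1, and Sox21 was the member with the widest interval. Osr1, the paralog of Osr2, and Sox2, Sox1, Sox3 and Sox14, relatives of Sox21, were not in the table.

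Of the 9 members, 4 had a log2 ratio above 0 and 5 below, with a median of -0.18. Only Gata5 was at 1 or more, and 19.3% of all genes tested were. Cdx2 and Sox21 were at -1 or less, as were 20.2% of all genes, so these counts lay near the background. No member was at 2 or more or at -2 or less, where 7.87% and 6.54% of all genes lay. The 6 others were between the 2-fold lines. Scaled by total counts instead, the median of all genes was -0.31, which moves each gene by -0.26. No member was then at 1 or more, against 15.4% of all genes, and Cdx2 and Sox21 stayed at -1 or less, against 26.2%. None was at 2 or more or at -2 or less with total counts either, against 6.31% and 8.83% of all genes. Among genes with a difference of at least 2-fold, the share with the higher level under DSS was 48.9% by TMM factors and 37.1% by total counts. All 9 members kept their sign under TMM, DESeq2 and upper quartile factors and total counts, although Osr2 came to 0.04 and Gata6 to 0.14 with total counts.

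**Figure D3:**
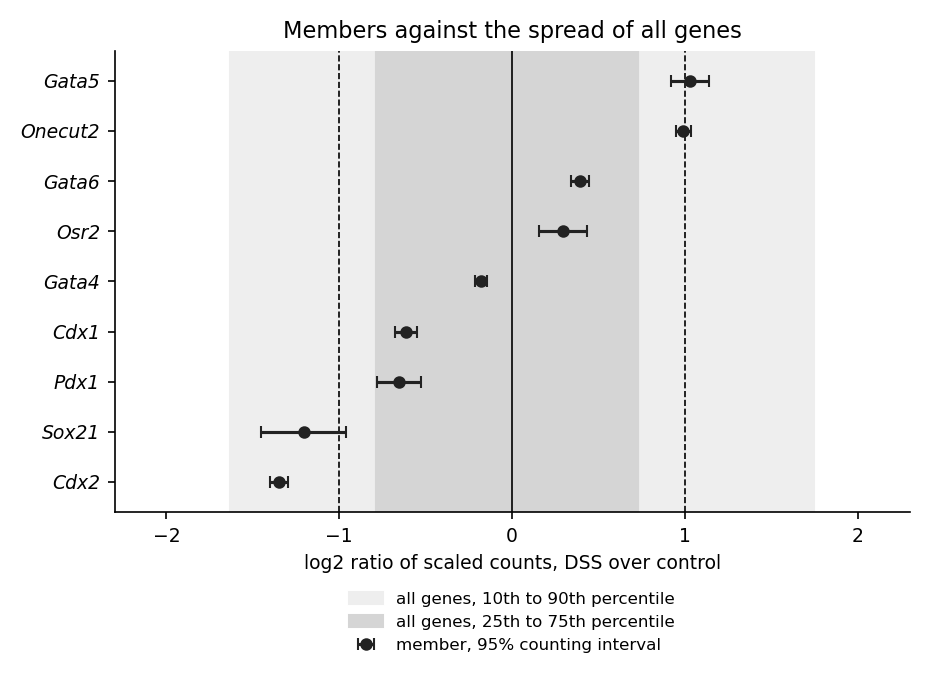
Log2 ratio of scaled counts, DSS over control, for the 9 members with 95% counting intervals, over bands that hold the central parts of all 17235 genes tested. Dashed lines mark a 2-fold difference, and Gata5 at 1.03, Sox21 at -1.20 and Cdx2 at -1.35 lie past them, while the intervals of Gata5 and Sox21 reach across.

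Ratios to a gene in the same library need no scaling. Hnf4a, which encodes a nuclear receptor active along the whole intestine, served as such a reference, with 52316 counts in the control and 41359 counts with DSS and a log2 ratio of 0.05. For 1 count of Hnf4a there were 0.245 counts of Cdx2 in the control and 0.0928 with DSS, a log2 change of -1.40 (interval -1.45 to -1.34). Relative to Hnf4a, Gata4 changed by -0.23, Gata6 by 0.34, Onecut2 by 0.94 and Gata5 by 0.98 on the log2 scale. With the epithelial adhesion gene Epcam as the reference, Cdx2 changed by -1.38 and Gata5 by 1.0. All 9 members kept their sign with either reference. With TMM factors both references lay near 0, Hnf4a at 0.05 and Epcam at 0.03. Ratios to them therefore stay close to the TMM ratios and are no separate check of the scaling. The epithelial genes Krt8 at 0.84 and Krt19 at 1.15 were not used as references.

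Levels of different genes were compared as CPM per kilobase of the longest transcript of the gene in GENCODE vM21. In the control library, Cdx2 was the highest at 79.1 CPM per kilobase, followed by Gata4 at 58.8, Cdx1 at 49.9, Gata6 at 21.8 and Pdx1 at 10.2. Below them were Onecut2 at 5.82, Gata5 at 4.63, Osr2 at 4.46 and Sox21 at 2.02 CPM per kilobase. The intervals of Gata5 and Osr2 overlapped, and those of all other neighbours in this order did not. In the DSS library, Gata4 was the highest at 51.9 CPM per kilobase. Cdx1 at 32.6 and Cdx2 at 31.1 followed with overlapping intervals, and Gata6 was at 28.7 CPM per kilobase. Onecut2 at 11.6 and Gata5 at 9.45 CPM per kilobase were then above Pdx1 at 6.46, with Osr2 at 5.47 and Sox21 at 0.876. Thus Cdx2 stood above all other members in the control and level with Cdx1 in the DSS library, and Pdx1 stood above Onecut2 and Gata5 in the control and below them with DSS. The places depend on the length, since Onecut2 has a transcript of 16.2 kb and the longest transcripts of Gata6 and Osr2 retain an intron. With the median transcript length, Gata4 at 129 and Gata6 at 113 CPM per kilobase stood above Cdx2 in the control. With the longest protein-coding transcript, Osr2 was at 7.14 CPM per kilobase in the control, above Onecut2, and Gata6 was at 33.6 with DSS, beside Cdx1 at 32.6.

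**Figure D4:**
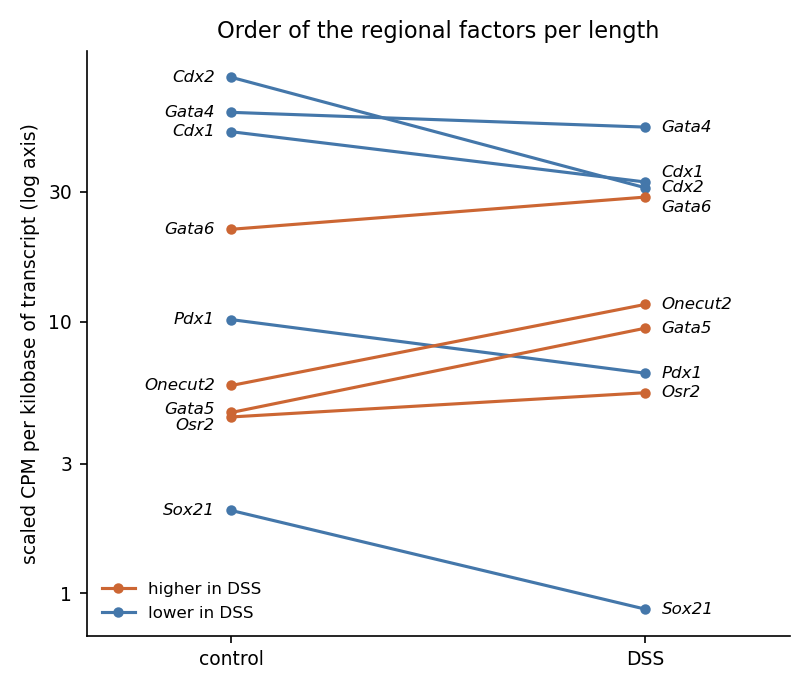
Scaled CPM per kilobase of the longest transcript on a log axis, for each member in the control (left) and DSS (right) library, with 1 line per gene. The line of Cdx2 runs from 79.1 to 31.1 and crosses that of Gata4, which runs from 58.8 to 51.9.

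The partners and neighbours of these factors in the regulatory network were read from lists of other genes. PBX and MEIS proteins bind DNA beside HOX and PDX1 proteins. Of 9 such genes, 8 were in the table, with a median log2 ratio of -0.21. Pbx4 was at 1.75 and Pbx3 at -1.16, and the other 6 were between the 2-fold lines, among them Pknox1 at -0.70. HOX genes, which encode position along the body axis, had few counts. Of 39 HOX genes, 5 were in the table with 81 counts in all in the control and 80 with DSS, and the most abundant was Hoxb3 with 54 and 34 counts. None of the posterior genes Hoxa13, Hoxb13 and Hoxd13 was in the table.

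Transcription factors shared by the whole intestine were compared in the same way. Of 13 HNF, FOXA, KLF and related genes in the table, 9 were between the 2-fold lines, and the median log2 ratio was -0.04. At 1 or more there were 3 and at -1 or less 1, where 19.3% and 20.2% of all genes tested lay. Creb3l3, a factor of lipid metabolism, had 1471 counts in the control and 18787 counts with DSS, a log2 ratio of 4.06. Hnf4g, the enterocyte relative of Hnf4a, was at 2.24 and Klf4, a factor of differentiated cells, at 1.47, while Sox9, a factor of crypt and Paneth cells, was at -1.86. Cdx2 and Sox9 were thus lower in the library in which the stem cell markers were lower, and Hnf4g and Creb3l3 higher where the enterocyte markers were higher. With 2 libraries this holds for every gene with a ratio of the same sign. Of all genes tested, 8963 were below 0 and 8272 above. The part of these cell types in the values was not tested.

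Genes that mark the proximal small intestine were higher in the DSS library. All 24 listed genes were in the table and above 0, with a median log2 ratio of 2.31. Of them, 23 were at 1 or more and 16 at 2 or more, where 19.3% and 7.87% of all genes tested lay. The apolipoprotein genes Apoa1 at 5.27, Apoa4 at 4.54 and Apoc3 at 4.49, whose products load dietary lipid for export, had the highest ratios. The lactase gene Lct had 378 counts in the control and 1283 counts with DSS, a log2 ratio of 2.15, while the iron importer gene Slc11a2 was the exception below the 2-fold line, at 0.38.

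Genes that mark the distal small intestine were higher as well, from lower levels. Of 15 listed genes, 14 were in the table and above 0, with a median log2 ratio of 3.04. Of them, 11 were at 1 or more, against 19.3% of all genes tested. Fabp6, the ileal bile acid binding protein gene, was not in the table. The ileal bile acid importer gene Slc10a2 had 78 counts in the control and 932 counts with DSS, a log2 ratio of 3.97 (interval 3.63 to 4.32). The peptide hormone gene Nts was at 3.67, Cubn, the receptor for vitamin B12 with its carrier, at 3.66, and the glucagon gene Gcg, the most abundant, at 3.04. The listed genes summed to 229 CPM in the control and 1180 CPM with DSS, against 5270 CPM and 28651 CPM for the proximal list. Proximal genes therefore held the larger sum in both libraries, and genes of both ends had higher levels in the DSS library, in which Gata4 had a log2 ratio of -0.18. The proximal list contains 3 of the 5 enterocyte markers and, in Cck and Sct, 2 of the 5 enteroendocrine markers, and the distal list holds the hormone genes Gcg, Pyy and Nts. The sums of both marker lists were also higher in the DSS library, and their part in these medians was not tested.

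Genes listed as dependent on CDX proteins in the intestine were mostly higher in the DSS library, in which Cdx2 was lower. Of 15 listed genes, 14 were in the table, with a median log2 ratio of 2.08. Of them, 11 were at 1 or more, where 19.3% of all genes tested lay. The mucin gene Muc2 was at 4.98, the peptide transporter gene Slc15a1 at 4.66 and the keratin gene Krt20 at 3.99, and the most abundant gene was the sucrase gene Sis, with 50761 counts in the control and 386101 counts with DSS. The cadherin gene Cdh17 at 0.93 and the guanylin receptor gene Gucy2c at 0.98 were short of the 2-fold line. Cftr, the chloride channel gene, was the 1 gene below 0, with 13606 counts in the control and 2272 counts with DSS, a log2 ratio of -2.19. The list holds Muc2 of the goblet cell markers and Alpi and Vil1 of the enterocyte markers. The part of these cell types or of Cdx2 in its values was not tested.

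**Figure D5:**
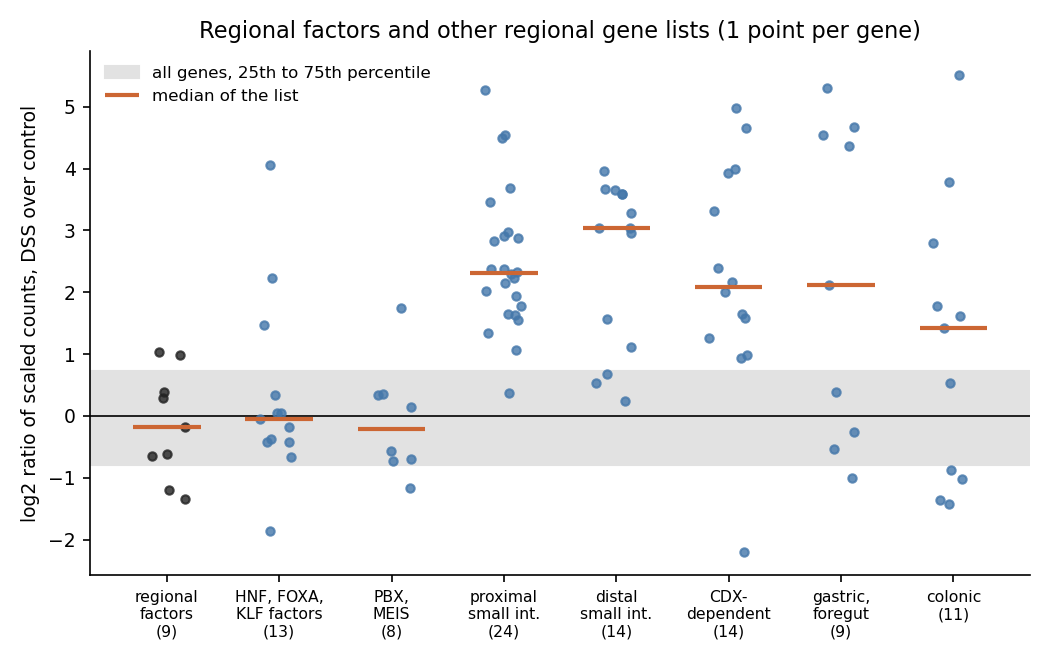
Log2 ratio of scaled counts, DSS over control, with 1 point per gene for the regional factors and 7 other gene lists, and the number of genes in parentheses. The median of the regional factors is -0.18, while those of the proximal, distal and CDX-dependent lists are 2.31, 3.04 and 2.08.

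Genes of the stomach and foregut were in part missing, in part higher and in part lower in the DSS library. Of 22 listed genes, 11 were not in the table, among them Sox2, the foregut factor, the surface mucin gene Muc5ac, the gastrokine genes Gkn1, Gkn2 and Gkn3, and Tff1. Of the 9 with at least 10 counts in a library, 6 were above 0 and the median log2 ratio was 2.11. Anxa10, Cldn18, Ctse, Gast and Muc6, 5 of the 9, were at 2 or more, where 7.87% of all genes tested lay, and the trefoil factor gene Tff2 was at the -1 line, at -1.005 with 176 and 67 counts. Anxa10, an annexin gene of the stomach, had 192 counts in the control and 5797 counts with DSS, which is 2.68 CPM and 106 CPM, for a log2 ratio of 5.30 (interval 5.10 to 5.52). Cldn18, a claudin gene of stomach and lung, had 11 counts in the control and 214 with DSS, at 4.67 (interval 3.80 to 5.69). Ctse, the gene of the gastric protease cathepsin E, had 24 and 429 counts, at 4.55. The gastric proton pump gene Atp4a was at -0.53, and the pepsinogen gene Pgc at -0.25 with 39 and 25 counts and an interval that included 0. Few counts stand behind Gast, with 8 in the control and 126 with DSS, and Muc6, with 10 and 33. Gast reached 10 counts only in the DSS library. The median of 2.11 is the ratio of Muc6, with an interval of 1.06 to 3.30. At 1 or more, where 19.3% of all genes tested lay, there were 5 genes. With at least 10 counts required in both libraries there were 4. The part of Cdx2 or of cell types in these values was not tested.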

How the data were processed

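Stranded poly(A) RNA-seq was made from 1 culture of control organoids and 1 given DSS. The values deposited by the authors are raw, unnormalized counts for each gene. The submitters' processing notes name HISAT2 and StringTie, while the genome build, the counting program and its strand setting were not given in the sources used here. The files of single samples carry FPKM in their names, yet their values equal the raw counts for all 19294 genes. Of the NCBI gene identifiers, 99.7% were found in the RefSeq table for GRCm38.p6. No gene in the table had a count below 1.

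The members and lists were chosen with earlier results of these data known. Factors were computed on the whole table (TMM in edgeR 4.0.16, R 4.3.3), and no test was made. Log2 ratios have exact Clopper-Pearson 95% intervals, levels exact Poisson intervals, and changes of a ratio of 2 genes an interval from the log odds ratio. Genes with at least 10 counts in a library (17235) entered counts and medians. Of each list, the most abundant gene was named, and the 3 of largest absolute log2 ratio that reached 50 counts in a library. Klf4, Lct, Slc11a2, Cdh17, Gucy2c, Cftr, Atp4a, Pgc, Gast, Muc6, Tff2 and the absent genes were named after their values were seen. Some genes that the rule names are not reported here. Gif, the older symbol of Cblif, was counted once. Transcript lengths and gene positions came from GENCODE vM21 by symbol, and promoters from RefSeq by symbol for 4 members. The ratio and its interval were tested on simulated counts. Alternatives were total counts, size factors of DESeq2 1.42.0, upper quartile scaling, adding a prior count of 2, thinning the control to the DSS depth, other count filters, a 4-fold line and other transcript lengths. Python 3.11.15, numpy 2.4.6, scipy 1.17.1, pandas 2.3.3 and matplotlib 3.10.9 were used.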

Additional observations from a re-analysis of the deposited data

How the results depend on the processing

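With 1 library per condition, no replicate could be left out, and the direction of every value rests on 1 culture each. No paired analysis was possible because each condition has 1 library and the labels give no replicate numbers. All 9 members kept the sign of their log2 ratio with total counts, DESeq2 size factors, upper quartile scaling, thinning and a prior count of 2. The number of members at 1 or more was 0 with total counts, when Gata5 was at 0.77, and 2 with upper quartile factors, when Onecut2 was at 1.08. With the line at 2 or -2 in place of 1 or -1, 0 members were past it in either direction. Of the listed genes, 45 were past it in place of 68. In the background of all 17235 genes tested, 7.87% reached the upper line at 2 and 6.54% the lower line at -2. The lines at 1 and -1 were reached by 19.3% and 20.2% of that background. With the median transcript length, which counts short partial transcripts, the level per kilobase in the control and DSS libraries was 129 and 114 for Gata4, 113 and 148 for Gata6 and 9.30 and 11.4 for Osr2. With the longest protein-coding transcript, an alternative chosen after seeing the data, it was 25.6 and 33.6 for Gata6 and 7.14 and 8.76 for Osr2. The summed GATA counts turned from 0.09 to -0.17 on the log2 scale with total counts, an alternative chosen after seeing the data. The lowest count of a member was 182, while single ratios of HOX, gastric and colonic genes rest on few counts.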

Other observations

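Genes of the colon were also listed, and they pointed in both directions. Of 15 genes, 11 were in the table, with a median log2 ratio of 1.42. Of these, 6 were at 1 or more, against 19.3% of all genes tested. Another 3 were at -1 or less, against 20.2% of all genes tested. With at least 10 counts required in both libraries, 3 in place of 6 were at 1 or more. The claudin gene Cldn8 was at -1.43, while Mettl7b was at 1.77. Muc3, a membrane mucin gene that small intestinal enterocytes also express, had 2797 counts in the control and 97996 counts in the DSS library, a log2 ratio of 5.52. The colonic carbonic anhydrase gene Car1, the goblet cell gene Retnlb and the hormone gene Insl5 were not in the table.

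In the 250 bases before the start, 8.08% of the 13002 genes of the count table with a RefSeq promoter held AGATAA and 8.38% held TTTATNG. Of all 27025 genes with such a promoter, 11.4% and 11.3% did. Of the 18 proximal small intestine genes with a promoter, 5 held AGATAA and 5 held TTTATNG. Of the 11 distal genes, 2 and 3 did, and of the 10 CDX-dependent genes also 2 and 3. These are matches of letters in a few genes of lists, 2 of which share Heph, and were not tested.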
